A study of Mus musculus with 5 samples.

Results

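The genes described here are the 9 mouse genes of the zona pellucida and of oocyte growth: Zp1, Zp2, Zp3, Gdf9, Bmp15, Oosp1, Figla, Nobox and Astl. They were chosen by gene symbol from a deposited expression table of 32285 genes, and all 9 were found in it. RNA-seq had been done on mouse embryos at the 2-cell stage, in 3 libraries exposed to 25 nM PNMC and 2 control libraries given an equal volume of DMSO, the solvent. What PNMC abbreviates is not stated in the labels. Both groups came from eggs of hormone-stimulated females of 6 to 9 weeks, fertilised in vitro for about 6 h with epididymal sperm of males of 12 to 16 weeks and then cultured for 24 h in KSOM embryo medium. No strain is named, and nothing in the labels says how many embryos a library held or whether libraries came from separate cultures, so the p-values speak only to variation among these libraries, some or all of which may be technical.

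The zona pellucida is the glycoprotein coat that the growing oocyte secretes and that surrounds the egg and the early embryo. In the mouse it is built from ZP2 and ZP3 filaments cross-linked by ZP1, and after fertilisation the protease ovastacin, the product of Astl, is released from cortical granules and cleaves ZP2, which blocks further sperm binding. GDF9 and BMP15 are paired ligands of the TGF-beta superfamily that the oocyte secretes to the surrounding granulosa cells, and OOSP1 is an oocyte-secreted protein. FIGLA, a basic helix-loop-helix factor that pairs with E proteins, and NOBOX, a homeodomain factor, are the transcription factors that drive this programme in the ovary. Transcripts of these genes in a 2-cell embryo are in the main inherited from the egg.

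The zona genes carry short 3′ untranslated regions, which are shown here because Smart-seq2 copies RNA from its poly(A) tail. In the GENCODE M21 transcripts (GRCm38) the 3′ untranslated region measured 34 bases in Zp1, 49 in Zp2 and 13 in Zp3, against a median of 739 over 21586 protein-coding genes. A region under 50 bases was annotated in 7.27% of those genes. The other 6 members had 3′ untranslated regions of 120 bases (Figla) to 1523 bases (Bmp15). The sites below show the poly(A) signal AATAAA in capitals with 9 bases on each side, 5′ to 3′ on the coding strand. A search of the last 50 bases of the transcript found AATAAA in 57.8% of all genes, in 7 of the 9 members, and in each zona gene.
Zp1: aatggactcAATAAAccattgttt
Zp2: ggacttgcaAATAAAgagactgca
Zp3: cccttccgcAATAAAagaagaaac
Bmp15: atcttaaagAATAAAttttcattt
In Zp3 the signal overlaps the stop codon TAA itself, whereas it begins 9 bases after the stop codon in Zp1 and 12 bases after it in Zp2. In Bmp15, shown as the member with the longest region, it begins 1496 bases after. Figla ends with the variant signal ATTAAA, and neither form was found in the last 50 bases of Oosp1. None of the 9 genes had an exon overlapping an exon of another gene on either strand in that annotation, which matters because the libraries keep no strand information.

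The 2 promoters printed next are those of Zp3, a known FIGLA target, and of Bmp15. E-boxes, the motif type of FIGLA, can be read in both, and a homeodomain motif, the type of NOBOX, in Bmp15 alone. RefSeq (GRCm38.p6) windows from 250 bases before to 50 bases after the start site matched 6 of the 9 members: Zp3, Bmp15, Oosp1, Figla, Nobox and Astl. The printed stretch runs from base 250 to base 11 before the start site. Capitals mark the E-box CANNTG, which reads the same on both strands, together with the coding-strand TATAA in Zp3 and, in Bmp15, the homeodomain motif TAATTA on either strand.
Zp3, chr5:135979855-135980094, plus strand: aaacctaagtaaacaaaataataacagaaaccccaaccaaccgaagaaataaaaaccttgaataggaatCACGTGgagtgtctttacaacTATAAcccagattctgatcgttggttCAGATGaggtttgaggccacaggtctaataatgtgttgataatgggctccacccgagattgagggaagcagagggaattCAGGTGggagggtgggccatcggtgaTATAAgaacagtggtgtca
Bmp15, chrX:6320735-6320974, minus strand: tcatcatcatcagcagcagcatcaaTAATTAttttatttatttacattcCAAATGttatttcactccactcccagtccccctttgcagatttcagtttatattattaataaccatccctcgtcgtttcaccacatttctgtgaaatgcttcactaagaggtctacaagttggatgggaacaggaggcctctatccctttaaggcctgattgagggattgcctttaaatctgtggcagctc
The Zp3 stretch held 3 E-boxes and 2 TATAA matches, 1 of which begins at position -29. The Bmp15 stretch held 1 E-box and 1 TAATTA. The full windows of 300 bases, longer than the 240 bases printed, held 4 E-boxes for Zp3 and 1 for Bmp15. Of the 6 members with windows, only Bmp15 held TAATTA, and none held TAATTG. Over all 32851 windows of that full length, 72.3% held at least 1 CANNTG, 17.5% held TATAA on the coding strand, 5.29% held TAATTA and 8% held TAATTG. An E-box is therefore common in windows of this size, and these matches are descriptions of the letters only.

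Markers of the 2-cell programme and of the egg were present in the libraries. All 7 markers of the 2-cell programme found in the table (such as Zscan4d and Zfp352) and all 11 maternal egg markers passed the filter on low values. That filter asked for 1 or more in 2 or more libraries and kept 12734 of 32285 genes. Passing it alone does not identify a tissue. The 2-cell markers summed to 925 to 1034 in controls and 891 to 1015 after PNMC. The maternal egg markers summed to 27024 to 27177 and 27712 to 31015, without overlap. Of these 11 genes 5 were higher and 6 lower after PNMC. The PNMC libraries lay above both controls in 3 (Dppa3, Tcl1 and Bcl2l10), beside 7.97% of all tested genes. Of 17 cumulus and granulosa cell markers 5 passed, with a summed level of 61.9 to 70.8 in controls and 55.6 to 67.5 after PNMC. Most of that sum came from Nr5a2 (22.0 to 27.9), Amhr2 (17.1 to 26.1) and Pfkp (6.93 to 12.8). Cyp19a1 was at 2.46 to 4.03 and Tnfaip6 at 0.106 to 2.62, while Foxl2, Inhba and Ptx3 were at 0 in every library. Of 12 sperm and spermatid markers 4 passed, with a summed level of 141 to 151 in controls and 135 to 160 after PNMC, nearly all of it from Odf2 (123 to 143), while Spam1 was at 6.75 to 10.4, Prm2 at 3.91 to 5.79, and Prm1, Tnp2 and Smcp at 0 in every library. Of 8 oviduct epithelium markers 3 passed, with sums of 61.6 to 63.3 and 50.8 to 93.1, mostly from Epcam (43.6 to 82.9) and highest in PNMC library 2, while Krt18 was at 2.58 to 6.76 and Pax8 and Msln were at 0. Of 10 blood and immune markers 4 passed, with sums of 13.0 to 16.6 and 11.2 to 14.1, among them Hba-a1 at 4.57 to 8.29, while Hbb-bt and S100a8 were at 0. In that list Cd68 was at 2.23 and 0.852 in the controls versus 4.52, 3.92 and 3.83 in the PNMC libraries, without overlap (limma adjusted p = 0.967). In the sperm list Prm2 was higher and Spam1 lower in all 3 PNMC libraries than in both controls (limma adjusted p = 0.993 for each). Groups did not overlap in 19.9% of all tested genes. The part of such cells in the results was not tested. Library sums lay between 446010 and 454548 in a unit that neither the labels nor the table states, so the depth of sequencing is unknown. Control library 2 listed 18595 genes above 0, against 17408 to 17635 in the other 4.

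All 9 genes passed the filter, and no member changed with PNMC at a limma adjusted p under 0.05, where 0 of 12734 genes tested (0%) did so. An unadjusted limma p under 0.05 was found in 0 of the 8 members other than Figla, where 636 genes (4.99%) had one. Figla had one too, but it entered the test through the PNMC libraries alone, where it is high, so its test carries no weight. Differences are PNMC minus control on the log2(value + 1) scale, where the added 1 shrinks differences between small values. In bulk embryo samples, fewer embryos or cells with a transcript and less of it per cell cannot be told apart. The 2 groups did not overlap in 2 of the 9 genes, Zp3 and Figla, where 19.9% of all tested genes did not overlap. Without genes that passed the filter through 1 group alone, 1 of the 8 members left, Zp3, did not overlap, beside 18.3% of 12301 genes. An unadjusted limma p under 0.05 was found in 0 of those 8 members, beside 4.28% of the same genes.

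**Figure D1:**
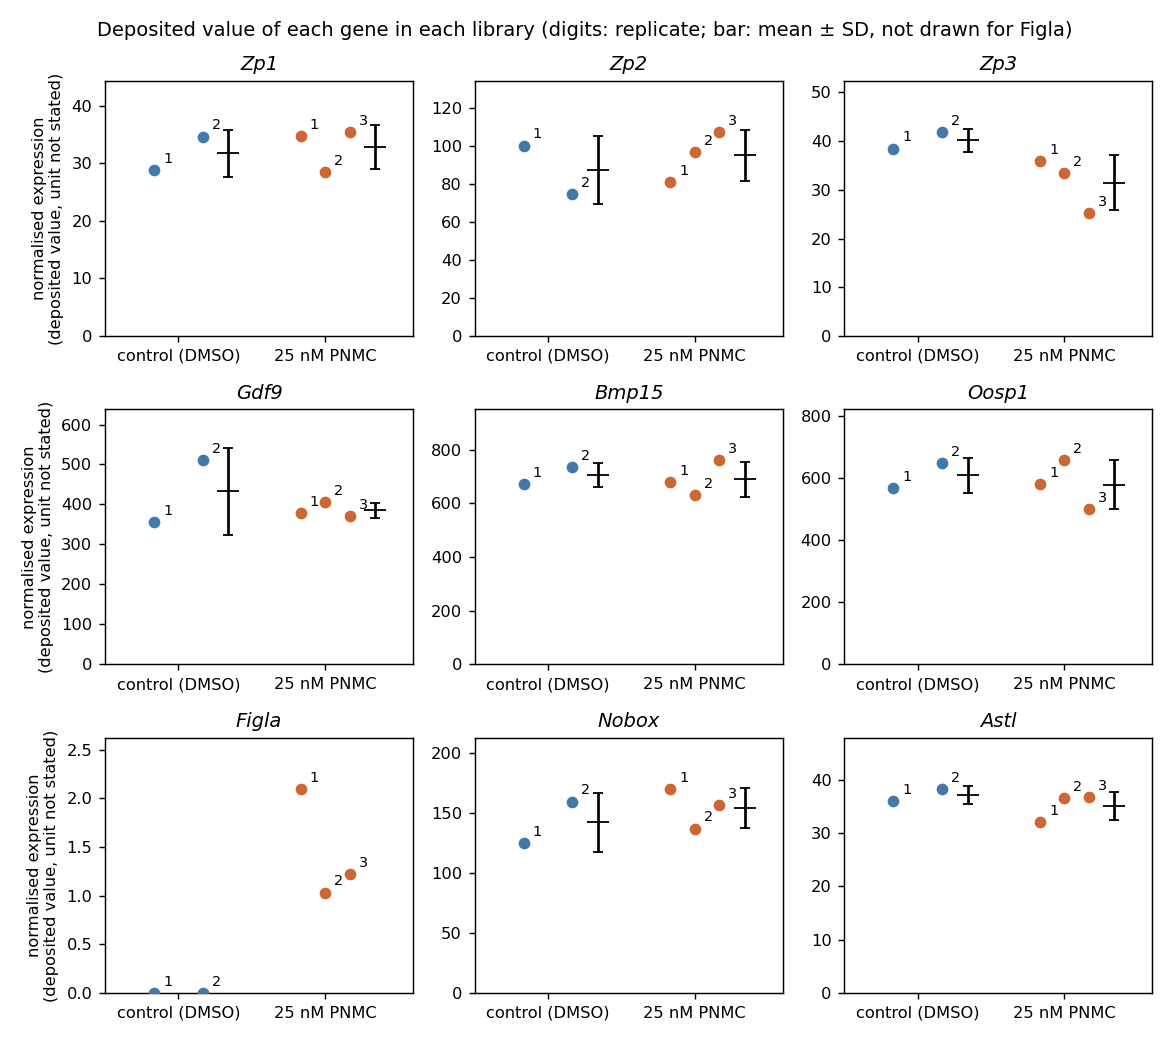
Deposited normalised expression (y axis, unit not stated, starting at 0) of each of the 9 genes in 2 control (blue) and 3 PNMC (orange) libraries; digits are replicate numbers, and black bars are the group mean ± SD, not drawn for Figla, which is listed at 0 in both controls. The groups overlap in 7 genes; the 3 PNMC libraries lie below both controls for Zp3 and above both for Figla.

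Zp1, whose product cross-links the zona filaments, was at 28.8 and 34.6 in control libraries 1 and 2, and at 34.7, 28.4 and 35.5 in PNMC libraries 1, 2 and 3. The groups overlapped, with the lowest value in PNMC library 2 and the highest in PNMC library 3. The control mean was 31.7 ± 4.10 (SD, n = 2) and the PNMC mean 32.9 ± 3.85 (SD, n = 3), a difference of 0.05 (SE 0.195, limma adjusted p = 0.993).

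Zp2, the sperm-binding subunit that ovastacin cleaves, was at 100.1 and 74.7 in the controls versus 80.8, 96.7 and 107.2 in the PNMC libraries. The controls spanned most of the range that the PNMC libraries covered. The means were 87.4 ± 18.0 (SD, n = 2) and 94.9 ± 13.3 (SD, n = 3), a difference of 0.12 with a 95% interval from -0.26 to 0.50 (limma adjusted p = 0.993).

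Zp3, the partner of ZP2 in the filaments, was at 38.5 and 41.9 in the controls versus 35.8, 33.4 and 25.2 in the PNMC libraries. All 3 PNMC libraries were lower than both controls, and PNMC library 3 stood furthest from them. The means were 40.2 ± 2.39 (SD, n = 2) and 31.5 ± 5.57 (SD, n = 3), a difference of -0.36 (SE 0.200, 95% interval -0.79 to 0.08). That difference did not pass the test (limma adjusted p = 0.993), and groups without overlap, with PNMC lower, were found in 1519 of the tested genes (11.9%). Without PNMC library 3 the difference was -0.21 (limma adjusted p = 1.00).

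The 3 zona transcripts did not vary together from library to library. In PNMC library 3 Zp1 and Zp2 were at their highest while Zp3 was at its lowest, and in control library 2 Zp2 was at its lowest while Zp3 was at its highest. The Zp1 to Zp3 ratio within a library was 0.750 and 0.827 for the controls, against 0.968, 0.852 and 1.41 for PNMC, with no overlap. The exact permutation test over libraries, two-sided, gave p = 0.2, the smallest that 2 against 3 libraries allow, and 0.5 after adjustment over the 5 ratios examined. The Zp2 to Zp3 ratio was 2.60 and 1.78 for the controls, against 2.25, 2.89 and 4.25 for PNMC, which overlapped (exact permutation p = 0.4, adjusted 0.6). The ratios rest on the same Zp3 values as the comparison above and are not further evidence on it.

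Gdf9 was at 355 and 510.0 in the controls versus 378, 407 and 371 in the PNMC libraries. The controls held both the lowest and the highest value, and the 3 PNMC libraries lay close together between them. The means were 433 ± 109 (SD, n = 2) and 385 ± 18.9 (SD, n = 3), a difference of -0.14 (SE 0.142, limma adjusted p = 0.993). The sign of that difference depended on a single control: it was -0.40 without control library 1 (limma adjusted p = 0.978) and 0.12 without control library 2 (limma adjusted p = 0.940).

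Bmp15, the X-linked partner ligand of Gdf9, was among the steadiest of these transcripts. It was at 673 and 736 in the controls versus 679, 631 and 759 in the PNMC libraries. The means were 704 ± 44.7 (SD, n = 2) and 689.7 ± 64.9 (SD, n = 3), a difference of -0.03 with a 95% interval from -0.27 to 0.20 (limma adjusted p = 0.993). The ratio of Gdf9 to Bmp15 was 0.528 and 0.693 for the controls, against 0.557, 0.645 and 0.489 for PNMC, and the groups overlapped (exact permutation p = 0.6, adjusted 0.6).

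Oosp1 was at 568 and 649 in the controls versus 581, 656 and 499 in the PNMC libraries. The highest and the lowest of the 5 values both came from PNMC libraries. The means were 608 ± 56.9 (SD, n = 2) and 579 ± 78.5 (SD, n = 3), a difference of -0.08 (SE 0.125, limma adjusted p = 0.993). The ratio of Oosp1 to Zp3 was 14.8 and 15.5 for the controls, against 16.2, 19.7 and 19.8 for PNMC, with no overlap (exact permutation p = 0.2, the smallest the design allows, adjusted 0.5).

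Astl, the gene of ovastacin, was at 36.0 and 38.3 in the controls versus 32.0, 36.6 and 36.7 in the PNMC libraries. Only PNMC library 1 lay below both controls. The means were 37.1 ± 1.62 (SD, n = 2) and 35.1 ± 2.67 (SD, n = 3), a difference of -0.08 with a 95% interval from -0.47 to 0.31 (limma adjusted p = 0.993). The ratio of Astl to its substrate transcript Zp2 was 0.360 and 0.513 for the controls, against 0.396, 0.378 and 0.343 for PNMC (exact permutation p = 0.6, adjusted 0.6).

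Nobox, the homeodomain factor gene, was at 125 and 160 in the controls versus 170.1, 137 and 157 in the PNMC libraries, with overlapping groups. Its means were 142 ± 24.6 (SD, n = 2) and 155 ± 16.7 (SD, n = 3), a difference of 0.12 (SE 0.153, limma adjusted p = 0.993). Figla, the helix-loop-helix factor gene, was listed at 0 in each control library, whereas PNMC libraries 1, 2 and 3 read 2.10, 1.03 and 1.22. It passed the filter through the PNMC libraries alone, so its lack of overlap and its test follow in part from that filter, and neither is given as support. Groups without overlap and with PNMC higher made up 7.97% of the tested genes. No fold is given against a group at 0, which may be an undetected transcript or a failed estimate.

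Of the 12734 genes tested, 3 (0.0236%) were at 0 in both controls and at 1 or more in all 3 PNMC libraries, and 3 others (0.0236%) showed the mirror image, with 0 after PNMC. The first 3 were Figla, Gm47003 and Ighv1-44, and the second were Atoh8, Clcf1 and Cryga. They were named after their values were seen. The pattern is that of Figla's own values, so its share is not evidence on Figla. At 0 in both controls, whatever the PNMC values, were 15 tested genes (0.118%), and 287 tested genes passed the filter through the PNMC libraries alone.

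**Figure D2:**
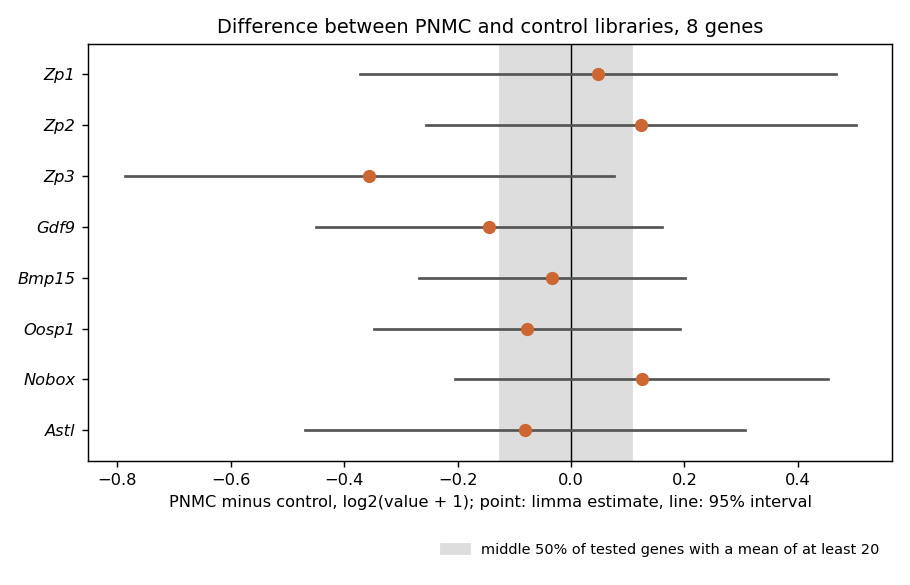
Difference between PNMC and control libraries (x axis, log2(value + 1), limma estimate as a point and its 95% interval as a line) for the 8 genes other than Figla; the grey band spans the middle 50% of the 3544 tested genes with a mean value of at least 20. Every interval includes 0, and Zp3 has the lowest estimate at -0.36.

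Without Figla, the intervals of the remaining 8 genes describe the differences under limma's trend and robust variances. Like the p-values, they speak only to variation among these libraries. Their SEs ran from 0.109 for Bmp15 to 0.200 for Zp3, against a median of 0.188 over the 3544 tested genes with a mean value of at least 20. With limma without trend and robust variances the SE was larger for each of the 8, from 0.203 for Astl to 0.243 for Zp2. The widths given next therefore depend on that setting. The 95% interval lay within 1 log2 unit in either direction for 8 of 8 genes and within 0.5 for 6 of 8. The lower bound farthest from 0, that of Zp3, corresponds to a fall of 42.0%, and the upper bound farthest from 0, that of Zp2, to a rise of 41.6%. Of the 9 genes, 4 had higher and 5 had lower log2 averages with PNMC, or 3 and 5 without Figla. The median difference was -0.03, or -0.06 without Figla. Over all tested genes 43.1% were higher, 56.9% were lower and the median was -0.05.

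Spread across the 5 libraries differed between the genes. The SD of log2(value + 1) was 0.0941 for Astl and 0.107 for Bmp15, smaller than in most genes with a mean of at least 20, where 10.6% and 15.6% had a smaller SD. It was 0.271 for Zp3, with 79.7% of those genes having a smaller SD, and the median of those genes was 0.183. The SD was 0.153 for Zp1, 0.161 for Oosp1, 0.180 for Nobox, 0.206 for Gdf9 and 0.217 for Zp2. Control library 2, the library listing the most genes above 0, had 7 of the 8 genes other than Figla above their own 5-library mean, where control library 1 had 3 and the PNMC libraries had 3, 4 and 5. Over all tested genes 58.1% were above their own mean in control library 2, the highest share of the 5 libraries (48.3% to 51.1% in the others), and over the genes with a mean of at least 20 the share was 50.2%. The part of that library in the comparisons was not tested beyond leaving it out.

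**Figure D3:**
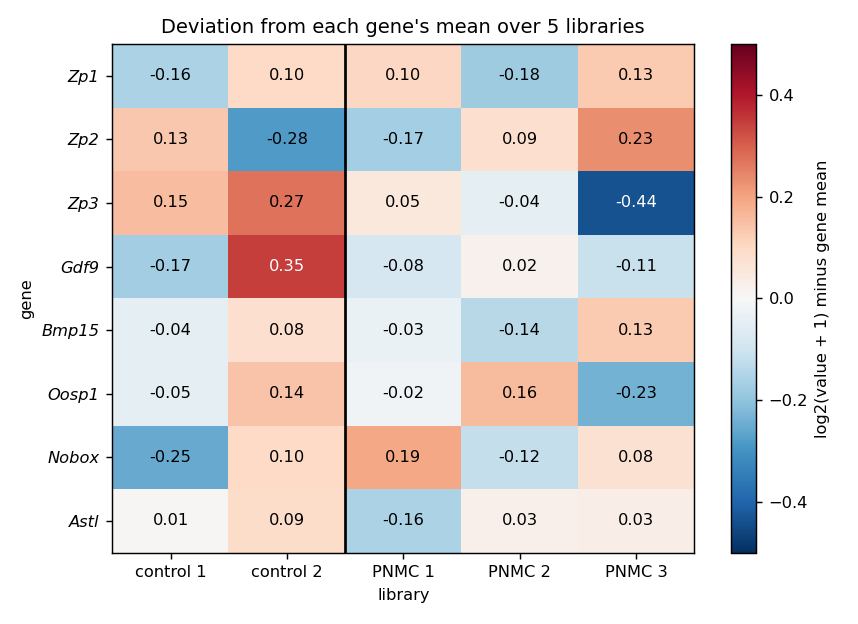
Deviation of log2(value + 1) from each gene's mean over the 5 libraries (colour and printed value) for 8 genes (rows) in each library (columns; a black line separates controls from PNMC). Control library 2 is above the mean in every gene except Zp2, and the lowest cell is Zp3 in PNMC library 3 at -0.44.

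Genes with a pattern most like the zona genes were sought among 3536 genes of mean at least 20, by the root mean square difference of log2 deviations over the 5 libraries from the mean deviation of Zp1, Zp2 and Zp3. The closest were Mettl9 at 0.0206, Gemin7 at 0.0220 and Rrm2b at 0.0223, against a median of 0.168. Zp1, Zp2 and Zp3 were themselves 0.140, 0.208 and 0.221 from their own mean, so the averaged pattern described none of the 3 closely. For the mean of Gdf9 and Bmp15 the closest were Banp at 0.0239, Swi5 at 0.0273 and Adk at 0.0281, and Gdf9 and Bmp15 each lay 0.0924 from it. With 5 libraries and so many candidates, near matches of this kind are descriptions only.

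The other 2 genes of the Oosp family were present in every library. Oosp3 was at 839 and 974 in the controls versus 882, 1117 and 847 in the PNMC libraries (limma difference 0.06, adjusted p = 0.993). Oosp2 was at 75.5 and 119 in the controls versus 85.0, 85.0 and 65.6 in the PNMC libraries (limma difference -0.28, adjusted p = 0.993). Both groups overlapped for each gene. Of the 7 names in that list found in the table, which also covers zona-domain genes of other tissues, these 2 passed the filter, and Tecta, of the inner ear, was at 0 in every library.

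Genes that process or cleave egg coat proteins, with inhibitors of such proteases, had 8 of 10 members tested. After PNMC 7 were higher and 1 lower with a median difference of 0.22, where 43.1% of all tested genes were higher. No member of the list passed the limma threshold. Fetub, the gene of fetuin-B, an inhibitor of ovastacin, had the highest values of the list, 26.9 and 28.9 in the controls versus 31.2, 35.5 and 33.5 in the PNMC libraries. The 3 PNMC libraries lay above both controls, as in 7.97% of all tested genes, with a difference of 0.25 (limma adjusted p = 0.993). Pcsk5, a proprotein convertase, was at 0 and 0.874 in the controls versus 2.29, 1.40 and 1.74 in the PNMC libraries; it passed the filter through the PNMC libraries alone, and without it 6 of 7 genes were higher. Furin, of the same family, was at 0.25 and 1.46 in the controls versus 2.28, 1.05 and 3.10 in the PNMC libraries (limma adjusted p = 0.993). The member with a lower mean was Tmprss12, at 1.01 ± 0.813 (SD, n = 2) and 0.861 ± 0.567 (SD, n = 3).

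Receptors, SMADs and antagonists of the TGF-beta superfamily, to which GDF9 and BMP15 belong, had 13 of 22 members tested. Of these 7 were higher and 6 lower with a median difference of 0.01, and none passed. Smad3, a transducer of the activin and TGF-beta branch, had the highest mean of the list, 19.5 ± 2.12 (SD, n = 2) and 21.2 ± 0.856 (SD, n = 3). The inhibitory Smad7 averaged 0.945 ± 0.377 and 1.76 ± 0.223, and the follistatin-like antagonist Fstl3 averaged 3.17 ± 1.66 and 5.34 ± 1.90. Smad5, of the BMP branch, averaged 4.40 ± 1.20 and 2.64 ± 0.914, and the type I receptor gene Acvr1 averaged 2.19 ± 0.420 and 1.39 ± 0.685. The limma adjusted p was 0.993 for each of these 5 genes. Groups did not overlap in 2 of the 13 tested, Bmpr1a and Smad7, both with PNMC higher, beside 7.97% of all tested genes.

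Of 14 other ligands of the superfamily, 4 were tested, 2 higher and 2 lower with a median difference of -0.19, and none passed. Tgfb2 had the highest values of the list, 394 and 395 in the controls versus 404, 478 and 416 in the PNMC libraries (limma difference 0.13, adjusted p = 0.993). Tgfb3 averaged 21.4 ± 3.47 (SD, n = 2) and 24.2 ± 1.23 (SD, n = 3). Bmp6, a ligand made in oocytes, was at 10.5 and 8.41 in the controls versus 6.10, 6.12 and 6.89 in the PNMC libraries (limma difference -0.50, adjusted p = 0.993). Nodal was at 1.24 and 1.70 in the controls versus 0, 0.388 and 0.668 in the PNMC libraries, and it passed the filter through the controls alone, which fixes its direction in part. Groups did not overlap for Tgfb2, Bmp6 and Nodal, 3 of the 4 tested, beside 19.9% of all tested genes.

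Other regulators of oocyte transcription and growth had 14 of 15 genes in the table tested, 4 higher and 10 lower with a median difference of -0.11, and none passed. Tcf3, the gene of the E proteins E12 and E47 with which FIGLA pairs, was at 16.2 and 11.9 in the controls versus 7.81, 7.11 and 11.3 in the PNMC libraries (limma difference -0.64, adjusted p = 0.967). Sohlh1, a factor upstream of Figla and Nobox in the ovary, was at 2.00 and 1.72 in the controls versus 0.432, 0 and 0 in the PNMC libraries. It passed the filter through the controls alone, and without it 4 genes were higher and 9 lower. Over all tested genes 56.9% were lower. For Tcf3 the 3 PNMC libraries lay below both controls, as in 11.9% of all tested genes. Pou5f1 averaged 274 ± 28.8 (SD, n = 2) and 299.9 ± 16.5 (SD, n = 3), and Tcf12, another E protein gene, averaged 2.34 ± 0.0452 and 2.94 ± 0.810. Npm2, the maternal nucleoplasmin, had the highest mean of the list, 341 ± 50.9 and 318 ± 38.2.

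Genes of cortical granule release, the step that delivers ovastacin, had 11 of 13 members tested, 5 higher and 6 lower with a median difference of -0.02, and none passed. Napa, the gene of the alpha-SNAP cofactor, was at 24.0 and 25.6 in the controls versus 20.3, 16.4 and 14.4 in the PNMC libraries (limma difference -0.53, adjusted p = 0.967). Nsf, the ATPase that works with it, had the highest values of the list, 74.5 and 70.4 in the controls versus 70.2, 52.7 and 69.2 in the PNMC libraries (limma adjusted p = 0.993). Myo5a averaged 6.19 ± 0.797 (SD, n = 2) and 7.39 ± 0.680 (SD, n = 3), and Vamp1 averaged 1.34 ± 1.57 and 2.71 ± 1.00. The complexin gene Cplx1 averaged 2.27 ± 0.829 and 1.38 ± 0.429. Groups did not overlap in 5 of the 11 tested genes of this list, 2 with PNMC higher and 3 with PNMC lower. Napa, Nsf and Myo5a were among them. Over the 52 tested genes of these 6 lists, 26 were higher and 26 lower, 4 had an unadjusted limma p under 0.05, and groups did not overlap in 14, beside the shares of 4.99% and 19.9% over all tested genes. Without the 3 genes that passed the filter through 1 group alone (Pcsk5, Nodal and Sohlh1), 25 were higher and 24 lower, 2 had an unadjusted limma p under 0.05 and 11 did not overlap, beside 4.28% and 18.3% of the 12301 tested genes that remained without such genes.

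**Figure D4:**
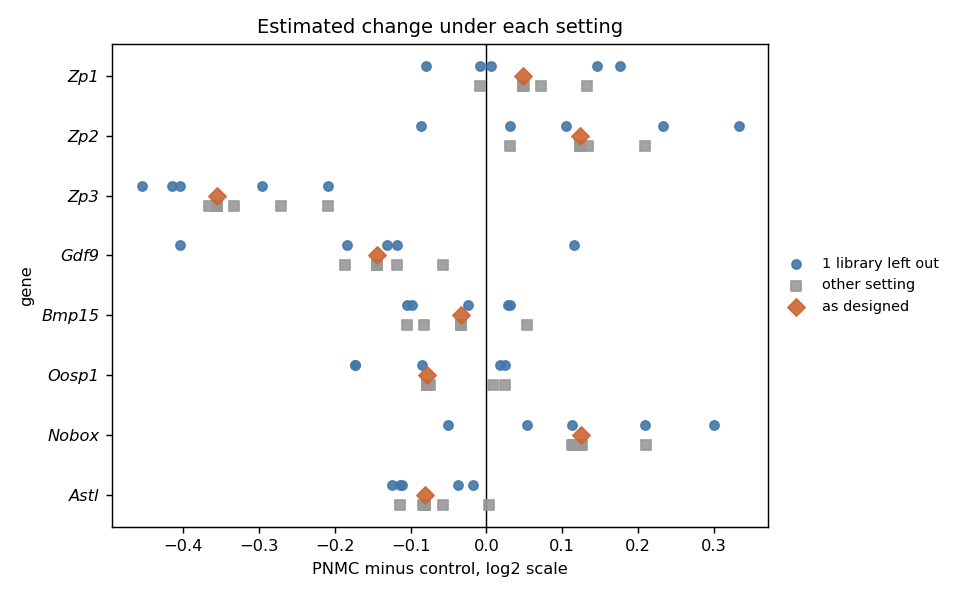
Difference between PNMC and control libraries (x axis, log2 scale) for 8 genes under each setting: as designed (diamonds), with 1 library left out (circles) and with another normalisation, filter, pseudocount, block or variance setting (squares). Zp3 stays below 0 in all of them, and the other 7 genes cross 0 in at least 1. The groups of Zp3 do not overlap, so leaving out 1 library could not turn its sign.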

How the data were processed

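The members and gene lists were chosen with earlier results of these data known. The authors deposited 1 table with a normalised signal per gene symbol and library, whose unit and making no label or header states; values are fractional and show no step of 1 read. Per the labels' protocols, total RNA came from a TRIzol extraction and was made into Smart-seq2 libraries. Per the submitters' processing notes, the build was GRCm39 and the tools included HISAT2 2.0.5, Trimmomatic, DESeq2 1.16.1 and HTSeq, with no order or role given. Columns were matched to samples by title.

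Genes at 1 or more in at least 2 libraries were kept (12734). PNMC and control were compared on log2(value + 1) with limma 3.58.1 in R 4.3.3 (trend, robust variances, no covariate). Benjamini-Hochberg adjustment ran over all genes tested, with a threshold of 0.05. The procedure was tested on simulated data with changes larger than any member's difference in this fit. That trial does not speak to differences as small as those of the members. Ratios used exact permutation tests (scipy 1.17.1, Python 3.11.15). Sequences came from RefSeq (GRCm38.p6) and GENCODE M21; their coordinates were not joined to the deposited values. Settings tried instead were a minimum of 10 in 2 libraries or no filter, a pseudocount of 0.1, quantile and median scaling, leaving out each library, a replicate block, and limma without trend or robust variances.

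Genes named besides the members were, in each list, up to 2 with the smallest p in each direction and the 1 with the highest mean value, and the 3 most alike in pattern.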

Additional observations from a re-analysis of the deposited data

How the results depend on the processing

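No member passed the adjusted threshold under any of the 12 alternatives, and the lowest limma adjusted p of a member was 0.528, for Figla, which passed the filter through the PNMC libraries alone, without trend and robust variances. Over all genes the count past the threshold was 0 except without PNMC library 1, where 1 gene passed, so leaving out 1 library gave 0 to 1 genes. The median difference of the members moved from -0.03 to 0.053 after median scaling, which moved the median of all tested genes from -0.05 to 0.03, and with 1 library left out it ranged from -0.098 to 0.031. Zp3 stayed lower in 12 of 12 alternatives (-0.45 to -0.21) and Figla higher in the 11 that kept it. Most of these could not turn either sign. Filter and variance settings leave the estimate as it was. Groups without overlap keep their sign with 1 library left out, a replicate block or another pseudocount. Only quantile and median scaling could have turned it, and they gave -0.33 and -0.27 for Zp3. After median scaling the sign turned for Bmp15 (0.053), Oosp1 (0.0089) and Astl (0.0034). With 1 library left out the difference ranged from -0.080 to 0.18 for Zp1, from -0.086 to 0.33 for Zp2, from -0.40 to 0.12 for Gdf9, from -0.10 to 0.031 for Bmp15, from -0.17 to 0.024 for Oosp1 and from -0.051 to 0.30 for Nobox. The libraries whose omission turned the sign were control 1 (Zp1, Nobox), control 2 (Zp2, Gdf9, Bmp15, Oosp1), PNMC 2 (Bmp15) and PNMC 3 (Zp1, Oosp1). The cause was not tested. An arm left with 1 library was assumed to vary like the other group.

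The labels number both groups, but nothing says that a number marks a shared batch. Same-numbered libraries' deviations from their group means had correlations across 12734 genes of -0.06 and -0.04. Pairs of different number had -0.01 to 0.06. The deviations of the controls mirror each other, so these values are not separate checks and cannot decide whether a batch was shared. With the replicate block, 0 genes passed, Zp1 was at -0.0083 and Oosp1 at 0.024, both of opposite sign, and no other member's sign turned; PNMC library 3 has no partner and adds nothing to that fit. The depth is unknown, so no counting limit can be set for Figla.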
